A study of Homo sapiens with 12 samples.

Results

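Histones carry methyl groups on lysine residues, and these marks are written by lysine methyltransferases and removed by lysine demethylases. The genes described here are 43 human genes of this system, namely methyltransferases, demethylases, the Polycomb subunits that go with EZH1 and EZH2, and the corepressor BCOR, out of 20033 protein-coding genes on the chromosomes used. The rule that takes them uses name and function, and no measured value. The genes were, however, chosen with earlier results of these data known. The locus of a gene is its body plus 10 kb on either side, on GRCh38, and a gene held a region if a listed region overlapped its locus by at least 1 bp. The 43 loci held 181 listed regions, of which 108 came from cells given enzalutamide, 57 from cells given OSU-ERb-12 and 16 from cells given the combination.

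Chromatin accessibility had been profiled by ATAC-seq, in which a transposase cuts accessible DNA, in 22Rv1, an established prostate cancer cell line labelled WT in all samples. There were 12 samples in 4 groups of 3: enzalutamide, an antiandrogen, at 1 µM for 6 h; OSU-ERb-12, a ligand of oestrogen receptor beta, at 100 nM for 6 h; OSU-ERb-12 plus enzalutamide for 6 h, with no doses in their own labels; and vehicle. The labels' protocols call the samples biological triplicates. The analysed data are 3 lists of regions, 1 for each treatment, from the nucleosome-free fraction on the hg38 build. The enzalutamide list is the longest with 25317 regions, followed by OSU-ERb-12 with 17931 and the combination with 6248. A region carries a position and nothing else. The lists give no value per sample, no depth and no stated direction, so a listed region is called "listed" here and not "opened" or "closed". The names of all 3 lists carry the tag "neg", which no source used here defines. If it marks a direction, each list would hold changes of 1 direction only, and a locus that changed the other way would be absent from it. Absence from a list does not show that a locus was unaffected. The lists were taken to come from comparisons with the same vehicle samples. No test could be run over samples, and the intervals given are exact Clopper-Pearson 95% intervals that cover the counting of genes or regions only. The cell type could not be checked against its markers, because the lists hold no expression values.

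As background, methylation of histone H3 at lysine K4 is known from active promoters and enhancers, K36 from transcribed bodies, K79 from active genes, and K9 and K27 from repressed chromatin. Most KMT2 enzymes and the SETD1 enzymes write K4, the NSD enzymes, SETD2 and ASH1L write K36, DOT1L writes K79, SUV39H1, SUV39H2, EHMT1, EHMT2 and SETDB1 write K9, and the Polycomb complex with EZH1 or EZH2, EED and SUZ12 writes K27. The demethylases KDM1A and KDM1B use a flavin, while the others belong to the Jumonji family and use iron and oxoglutarate. Several of these proteins, KDM1A and EZH2 among them, are known to act with the androgen receptor in prostate cancer cells.

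The promoters that a listed region covered show where the enzalutamide list meets these genes. The RefSeq promoter table used here (GRCh38.p14) gives 250 bases before and 50 bases from each start, and it held 40 of the 43 genes. An enzalutamide region overlapped this 300-base window at 15 of the 40 (37.5%), against 12.2% of 15842 protein-coding genes with an entry. OSU-ERb-12 regions did so at 1 gene (2.50%, background 1.74%), SMYD3, and combination regions at 2 (5.00%, background 2.41%), KDM6B and SMYD3. The 6 sequences are the 4 most covered at a gene's outermost start together with the 2 promoters that a combination region overlapped. They are written 5′ to 3′ along the direction of transcription, and capitals mark the bases that lie inside a listed region.
KMT2C, a K4 methyltransferase, chr7:152435954-152436253, minus strand, enzalutamide region: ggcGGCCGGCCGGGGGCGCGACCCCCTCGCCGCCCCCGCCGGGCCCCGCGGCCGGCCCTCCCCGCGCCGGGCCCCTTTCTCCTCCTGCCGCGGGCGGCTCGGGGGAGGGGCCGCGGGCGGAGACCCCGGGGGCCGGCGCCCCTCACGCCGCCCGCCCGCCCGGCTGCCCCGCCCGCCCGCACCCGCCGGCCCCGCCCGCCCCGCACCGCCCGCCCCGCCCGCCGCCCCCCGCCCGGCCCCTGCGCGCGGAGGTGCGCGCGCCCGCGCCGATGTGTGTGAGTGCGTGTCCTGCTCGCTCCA
EED, a Polycomb subunit, chr11:86244503-86244802, plus strand, enzalutamide region: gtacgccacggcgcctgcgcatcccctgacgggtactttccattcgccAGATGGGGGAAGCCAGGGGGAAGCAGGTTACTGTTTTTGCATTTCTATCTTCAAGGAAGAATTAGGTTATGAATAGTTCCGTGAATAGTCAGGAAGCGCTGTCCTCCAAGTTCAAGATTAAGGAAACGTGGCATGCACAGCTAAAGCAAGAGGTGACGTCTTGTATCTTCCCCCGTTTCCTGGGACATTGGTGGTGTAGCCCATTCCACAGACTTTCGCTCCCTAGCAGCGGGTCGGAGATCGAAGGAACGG
EHMT1, a K9 methyltransferase, chr9:137618755-137619054, plus strand, enzalutamide region: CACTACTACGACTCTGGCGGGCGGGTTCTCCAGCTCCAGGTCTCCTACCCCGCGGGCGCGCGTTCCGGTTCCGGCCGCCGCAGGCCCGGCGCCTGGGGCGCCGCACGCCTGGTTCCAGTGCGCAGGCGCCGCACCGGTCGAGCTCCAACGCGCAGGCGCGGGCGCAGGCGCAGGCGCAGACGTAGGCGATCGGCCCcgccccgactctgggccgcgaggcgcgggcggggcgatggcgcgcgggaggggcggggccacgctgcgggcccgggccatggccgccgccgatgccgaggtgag
KDM1A, a K4 demethylase, chr1:23019218-23019517, plus strand, enzalutamide region: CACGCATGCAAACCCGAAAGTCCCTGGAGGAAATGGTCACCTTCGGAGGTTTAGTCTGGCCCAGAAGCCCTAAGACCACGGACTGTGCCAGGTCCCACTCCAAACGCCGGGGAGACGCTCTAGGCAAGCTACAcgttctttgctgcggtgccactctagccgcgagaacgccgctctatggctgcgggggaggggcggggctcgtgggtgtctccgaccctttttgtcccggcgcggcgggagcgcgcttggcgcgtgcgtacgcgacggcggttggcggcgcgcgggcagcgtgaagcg
KDM6B, a K27 demethylase, chr17:7833967-7834266, plus strand, enzalutamide and combination region: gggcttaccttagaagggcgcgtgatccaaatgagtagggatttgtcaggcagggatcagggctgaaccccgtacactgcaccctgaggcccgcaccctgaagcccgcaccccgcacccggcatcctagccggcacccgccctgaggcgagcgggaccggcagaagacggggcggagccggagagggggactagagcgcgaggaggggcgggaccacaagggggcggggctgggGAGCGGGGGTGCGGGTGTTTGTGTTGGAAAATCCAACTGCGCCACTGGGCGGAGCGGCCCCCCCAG
SMYD3, a methyltransferase, chr1:246507230-246507529, minus strand, region of all 3 lists: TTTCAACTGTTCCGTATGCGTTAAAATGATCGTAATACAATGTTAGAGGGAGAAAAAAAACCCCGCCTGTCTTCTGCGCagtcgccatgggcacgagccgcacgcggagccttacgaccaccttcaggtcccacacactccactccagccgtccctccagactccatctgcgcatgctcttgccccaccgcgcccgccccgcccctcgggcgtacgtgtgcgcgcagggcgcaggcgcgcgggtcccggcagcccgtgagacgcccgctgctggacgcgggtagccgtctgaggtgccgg

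The enzalutamide region covered 297 of 300 bases at KMT2C, 252 at EED, 196 at EHMT1 and 133 at KDM1A. At KDM6B the capitals begin 16 bases before the start and run on into the gene (66 bases), and at SMYD3 they end 172 bases before it (79 bases). The KMT2C window is 88.7% G and C with 56 CG dinucleotides, whereas the EED window is 52.3% G and C with 16. GC boxes (GGGCGG or its reverse complement CCGCCC) were present in 35 of the 40 promoters (87.5%), against 64.3% of all 15842, and in 13 of the 15 that an enzalutamide region overlapped, against 81.1% of all promoters that one overlapped. The half-site of the androgen response element (AGAACA, or TGTTCT on the other strand) was in none of the 40, against 14.9% of all promoters. The oestrogen half-site (AGGTCA or TGACCT) was in 2, BCOR and KDM6A (5.00%, 15.3% of all), neither of which had a listed region over the window. The forkhead letters TGTTTAC or GTAAACA were in EZH1, KDM2B and NSD1 (7.5%, 3.75% of all), and CCAAT or ATTGG in 18 (45%, 42.1% of all). Further motifs were searched. The E-box CACGTG was in 8 (20%, 10.9% of all) and the CRE TGACGTCA in 3 (7.5%, 3% of all). ETS letters were in 6 (15%, 16.5% of all) and AP-1 letters in 3 (7.5%, 8.04% of all). NRF1 letters (1.99% of all) and the full androgen (0%) and oestrogen (0.0505%) elements were in none. No difference was tested. A match gives letters in a window, and says nothing of whether a factor is bound.

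Taken gene by gene, most of these loci held an enzalutamide region. It was 37 of 43 (86.0%, interval 72.1 to 94.7), against 58.3% of all protein-coding genes. An OSU-ERb-12 region lay in 23 loci (53.5%, 37.7 to 68.8; background 39.2%), and the combination list reached 14 (32.6%, 19.1 to 48.5; background 21.7%). The loci are long, with a median of 104 kb against 44.1 kb for all genes, and longer loci hold more regions by length alone. Among genes of like locus length, the same share would be 30.7 of 43 loci for enzalutamide, 22.5 with OSU-ERb-12 and 12.3 under the combination. The observed 23 and 14 lie close to these numbers, and the 37 for enzalutamide lies 1.2 times above. The median number of regions per locus was 2 against 1 over all genes for enzalutamide, 1 against 0 for OSU-ERb-12, and 0 against 0 for the combination. At least 2 enzalutamide regions were held by 27 of the 43 genes (background 29.5%), at least 2 OSU-ERb-12 regions by 16 (15.3%), and 2 combination regions by 2, EZH1 and KDM6B (4.57%). These medians and counts were not matched for locus length.

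**Figure D1:**
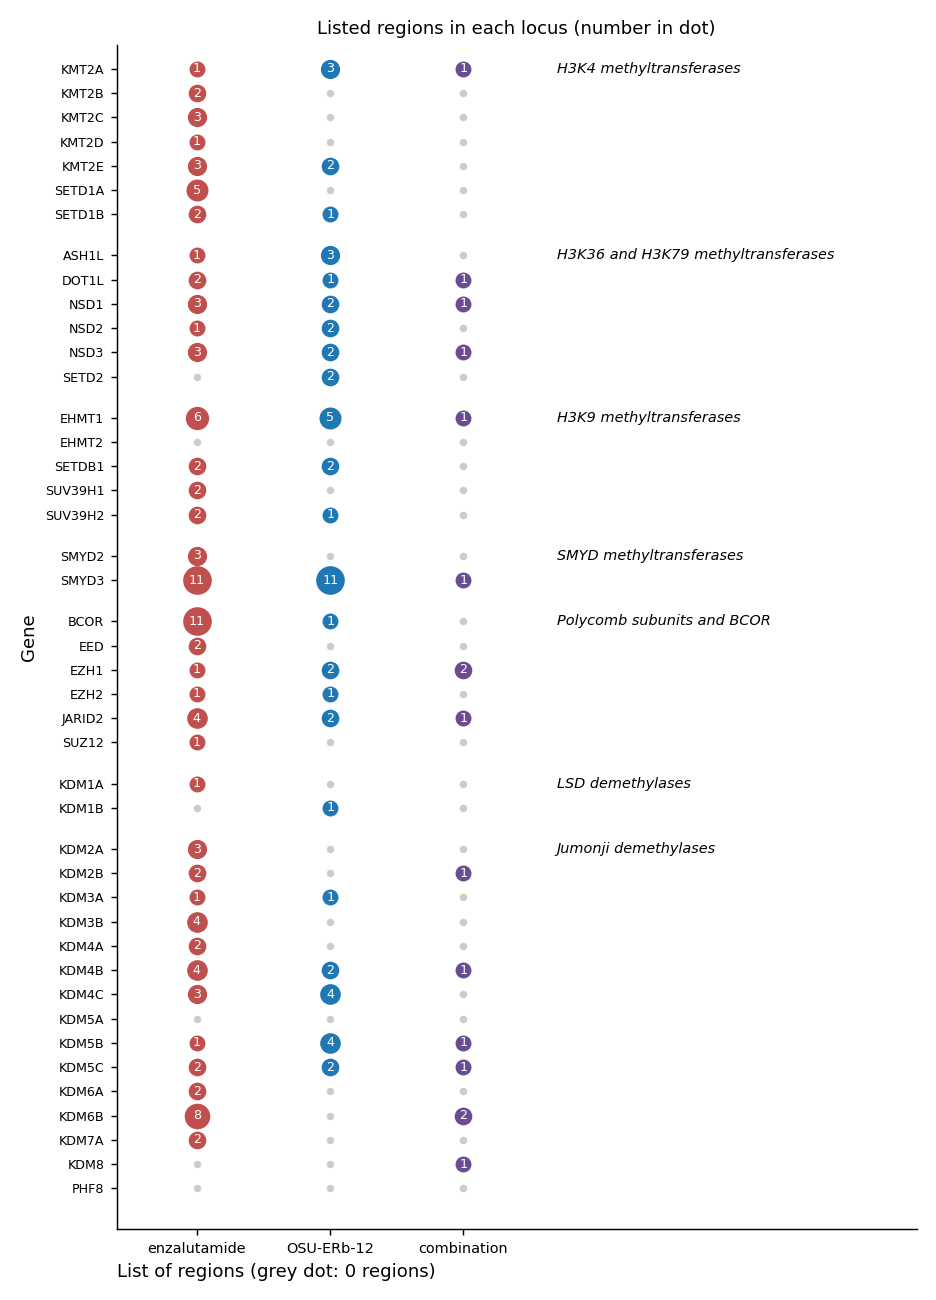
Number of listed regions in the locus (gene body plus 10 kb on either side) of each of the 43 genes, grouped by role down the page, for the 3 lists; a grey dot stands for 0. BCOR and SMYD3 hold 11 enzalutamide regions each, SMYD3 also 11 OSU-ERb-12 regions, and no locus holds more than 2 combination regions.

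Density was set out on 2 scales. In regions per Mb the loci held 17.8 for enzalutamide, against 13.6 over the loci of all protein-coding genes, 9.37 against 8.16 for OSU-ERb-12 and 2.63 against 3.28 for the combination. Set against the density of each list within 5 Mb of the locus, a scale chosen after the data were seen, the ratios were 1.36, 0.968 and 0.720 for these genes and 1.38, 1.15 and 1.27 for all genes. On that scale these genes were level with other genes for enzalutamide and below them for the other lists, so the higher densities per Mb for enzalutamide and OSU-ERb-12 did not hold. Without BCOR and KDM6B the enzalutamide ratio was 1.14 (89 regions, 78.4 expected). This lay below the 1.38 of all genes, from which no gene was left out.

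A larger share of these genes than of all genes had an enzalutamide region at a start. A start was counted if any base of a region lay within 1 kb of it. Of the 40 genes with a start in the promoter table, 25 had an enzalutamide region within 1 kb of a start (62.5%, interval 45.8 to 77.3), against 29.2% of all genes. OSU-ERb-12 regions stood at 5 starts and combination regions at 5 (12.5%, 4.19 to 26.8), against 6.77% and 5.12%. Of 111 other chromatin genes, 37.8% had an enzalutamide region at a start, 7.21% one of OSU-ERb-12 and 12.6% one of the combination. By group, the enzalutamide share was highest in other lysine methyltransferases (8 of 16, 50%) and cofactors of the K4 enzymes (4 of 9, 44.4%). It was lowest in other demethylases (1 of 6, 16.7%), and the remaining groups lay between 33.3% and 38.5%. The 50% lies inside the interval of the 40 genes. These promoters are rich in CG, with a median ratio of observed to expected CG of 0.953 against 0.799. Among genes of like CG ratio 39.1% had an enzalutamide region at a start, and 29.5% did among genes with as many listed starts. Of the 28 genes with a single start, 16 had an enzalutamide region there (57.1%, against 25.9% of all such genes). An opposite-strand start lay within 1 kb for 14 of the 40 genes, and 8 of these (57.1%) and 17 of the other 26 (65.4%) had an enzalutamide region at the start, against 39.7% and 25.5% over all genes. Counted by region, the loci of DOT1L, NSD3 and SETD1B, which have no start in the promoter table, were left out. Of 101 enzalutamide regions in the loci of the 40 genes, 30 lay at a start (29.7%, interval 21.0 to 39.6), against 33.0% over all loci. For OSU-ERb-12 it was 5 of 53 (9.43%, interval 3.13 to 20.7, against 11% over all loci), with 39 in the gene body (73.6%). For the combination it was 5 of 14 (35.7%, interval 12.8 to 64.9, against 21.9%). In each case the value over all loci lay inside the interval. For these genes a region counted only at a start of its own gene. Regions near a neighbour's start, such as 1 lying 518 bp from that of ORAI3 and 1 lying 192 bp from that of NAA38, did not count. The shares over all loci may include starts of any gene, so no direction is read from these differences.

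**Figure D2:**
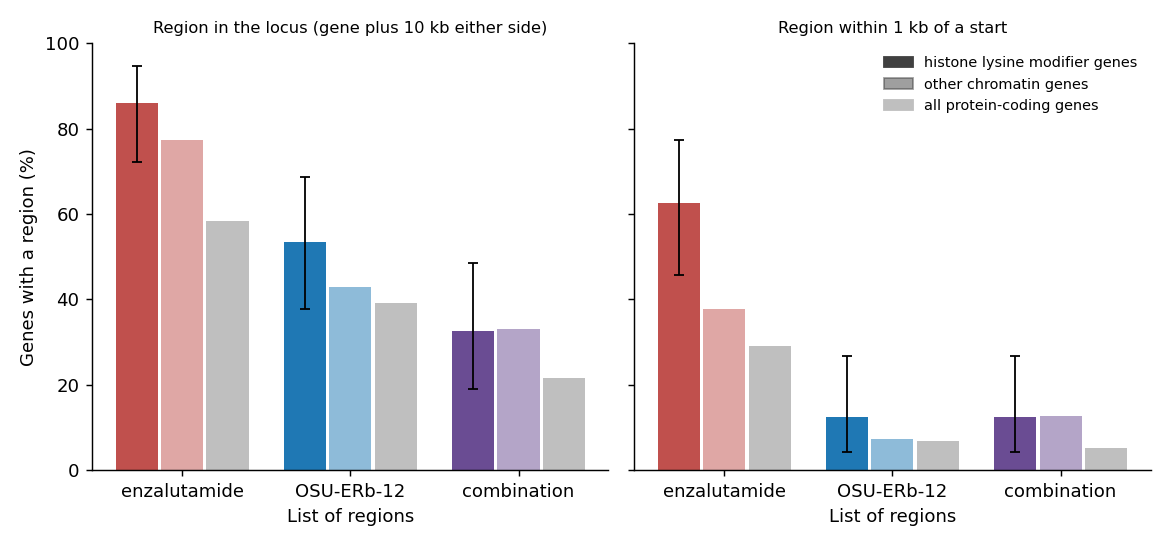
Percent of genes with a listed region in the locus (left) and within 1 kb of a start (right) for each list, as bars for the histone lysine modifier genes (43 and 40 genes, error bars exact 95% intervals), other chromatin genes (133 and 111) and all protein-coding genes (20033 and 15842). The enzalutamide share at starts is 62.5%, 37.8% and 29.2% in this order.

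**Figure D3:**
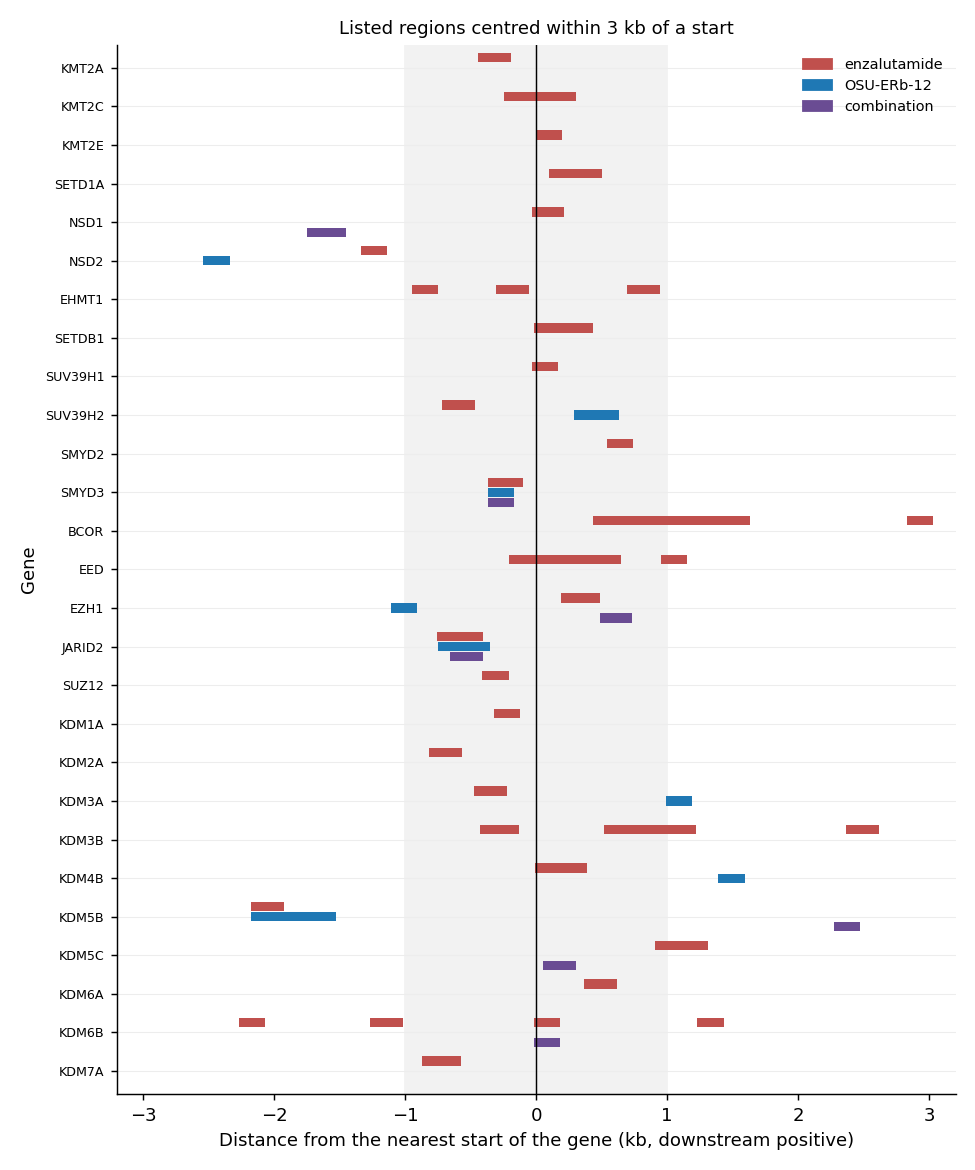
Listed regions centred within 3 kb of the nearest start of the gene, drawn to scale, with distance in kb along the direction of transcription on the x axis and 1 row per gene; red is enzalutamide, blue OSU-ERb-12, purple the combination, and the grey band spans 1 kb either side. Regions of all 3 lists overlap at SMYD3 and JARID2; the enzalutamide bar of SMYD3 also holds a region near its inner start.

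Among the K4 methyltransferases, all 7 held an enzalutamide region (58.3% of all genes), 3 (KMT2A, KMT2E and SETD1B) also one of OSU-ERb-12 (39.2%), and KMT2A alone one of the combination (21.7%). In 4 of the 6 with a start in the table an enzalutamide region lay at the start (29.2% of all genes). In none did an OSU-ERb-12 region (6.77% of all genes) or a combination region (5.12%) lie there. At such shares, an absence over 6 genes shows little. At KMT2C it spanned 550 bp, from 152435701 to 152436250 on chromosome 7, across the start of the gene. At KMT2A, the MLL gene of leukaemia translocations, an enzalutamide region was centred 0.32 kb before the start, while its 3 OSU-ERb-12 regions lay 21.78, 90.41 and 93.68 kb after it, the last beyond the gene. The combination region of KMT2A lay 419 bp beyond the gene, 250 bp from an OSU-ERb-12 region. At KMT2E the enzalutamide region at 105024701 to 105025050 on chromosome 7, 10.67 kb into the gene, shared 150 bp with an OSU-ERb-12 region. SETD1A held 5 enzalutamide regions (0.469 expected from the density within 5 Mb), of which 1 lay inside the gene, 0.30 kb after the start. KMT2B and KMT2D held 2 and 1 enzalutamide regions and no region of the other lists, and SETD1B held 2 enzalutamide regions and 1 OSU-ERb-12 region.

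The K36 and K79 methyltransferases were the group with more OSU-ERb-12 than enzalutamide regions. All 6 genes held an OSU-ERb-12 region (39.2% of all genes), 12 regions in total, beside 10 enzalutamide regions at 5 genes (58.3% of all genes) and 3 combination regions at 3 genes (21.7% of all genes). The 6 loci are long, 0.957 Mb in all, and these shares were not matched for length. Against the density within 5 Mb, OSU-ERb-12 counts were not raised throughout the group. They lay below the expected number at ASH1L, DOT1L (1.14 expected) and SETD2 (2.34), and above it at NSD1 (1.75), NSD2 (1.3) and NSD3 (1.43). Enzalutamide counts lay below it at ASH1L, DOT1L (2.01), NSD2 (1.62) and SETD2, and above it at NSD1 (2.23) and NSD3 (1.05). Over all genes, counts were 1.38 times the expected number for enzalutamide and 1.15 times for OSU-ERb-12. Counts slightly above it, as at NSD1, are therefore no excess over other genes. At the 4 genes with a start in the promoter table, none of the OSU-ERb-12 regions lay at a start. Such a region was found at 6.77% of all genes, so an absence over 4 genes shows little. DOT1L and NSD3 were not assessed for this. SETD2, the enzyme of K36 trimethylation, held 2 OSU-ERb-12 regions, both inside the gene 29.31 and 96.06 kb after the start, and no enzalutamide region where 2.98 were expected from the density within 5 Mb. ASH1L held 3 OSU-ERb-12 regions (5.80 expected) and 1 enzalutamide region (5.78 expected), so both lists were sparser there than around the gene. NSD1 held an enzalutamide region at an inner start and a combination region 1448 bp before the gene, and its enzalutamide and OSU-ERb-12 regions beyond the 3′ end, at PRELID1, lay 200 bp apart. NSD2 held an enzalutamide region 1.24 kb and an OSU-ERb-12 region 2.44 kb before the start, NSD3 held 3 enzalutamide, 2 OSU-ERb-12 and 1 combination region, and DOT1L held 2, 1 and 1.

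**Figure D4:**
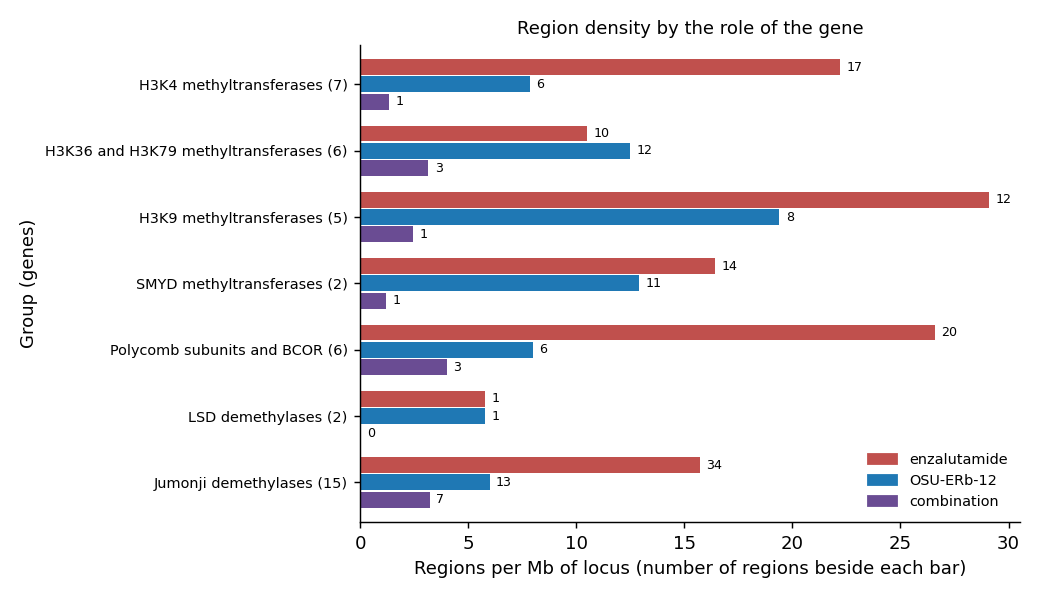
Listed regions per Mb of locus for 7 groups of genes by role (number of genes in brackets, number of regions beside each bar); red is enzalutamide, blue OSU-ERb-12, purple the combination. The K36 and K79 group is the one where OSU-ERb-12 (12.5 per Mb) exceeds enzalutamide (10.5 per Mb), and the K9 group has the highest enzalutamide density (29.1 per Mb). The bars are not set against the density within 5 Mb, and the order of the groups holds for regions per Mb only.

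The K9 methyltransferases differed from gene to gene. EHMT1 (chromosome 9, 137619005 to 137836127), which encodes GLP, held 6 enzalutamide, 5 OSU-ERb-12 and 1 combination region (4.67, 3.01 and 1.75 expected from the density within 5 Mb). Its paralogue and partner EHMT2, which encodes G9a, held none of any list, in a locus of 37.9 kb where 0.338 enzalutamide regions were expected. In EHMT1, 3 enzalutamide regions stood within 1 kb of the start, centred 0.85 kb and 0.18 kb before and 0.82 kb after it, and the OSU-ERb-12 regions all lay inside the gene, 44.37 to 194.75 kb after the start. The nearest pair of these lists, near 44 kb, was 100 bp apart. SUV39H2 had an enzalutamide region 0.59 kb before and an OSU-ERb-12 region 0.46 kb after its start, and SUV39H1 and SETDB1 held 2 enzalutamide regions each, 1 of them at a start. SETDB1 also held 2 OSU-ERb-12 regions, 1 before the gene and 1 inside it, and SUV39H1 held none.

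SMYD3, a methyltransferase gene of 758 kb on chromosome 1, held 11 enzalutamide and 11 OSU-ERb-12 regions, against 11.4 and 10.6 expected from the density within 5 Mb. Its counts were thus close to those of its surroundings. Its combination count was 1 (1.99 expected). That single combination region, at 246507451 to 246507650, had the same boundaries as a region of each single-agent list and ended 172 bp before the gene. The single-agent lists overlapped at 1 other place in the gene, by 100 bp, so 9 regions of each lay apart from the other list. SMYD2 held 3 enzalutamide regions and none of the other lists, 1 of them at its start.

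**Figure D5:**
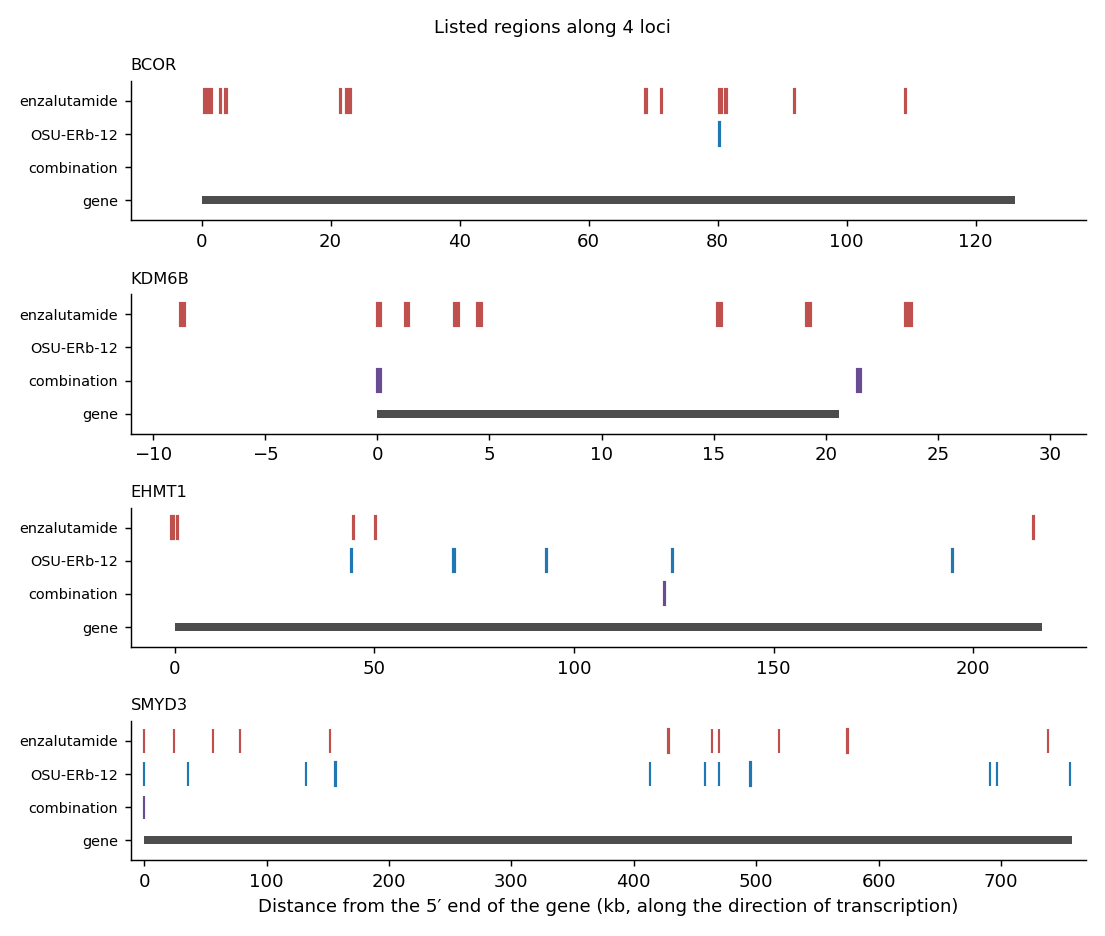
Listed regions along BCOR, KDM6B, EHMT1 and SMYD3, with distance from the 5′ end of the gene in kb along the direction of transcription on the x axis, a row for each list and the gene as a grey bar. At BCOR 11 enzalutamide regions face 1 OSU-ERb-12 region, and at SMYD3 the lists meet at the start.

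All 6 of the Polycomb group held an enzalutamide region (58.3% of all genes), and 5 of them at a start (29.2% of all genes). BCOR, a subunit of a variant Polycomb repressive complex and a corepressor of BCL6, lies on the X chromosome (40051246 to 40177277) and held 11 enzalutamide regions where 0.643 were expected from the density within 5 Mb; 16 of all genes held more. All 11 lay inside the gene and together covered 4400 bp. They stood in groups, 3 of them within 4 kb of the 5′ end of the gene, 2 at 21.58 and 22.73 kb, 5 between 68.90 and 91.93 kb, and 1 at 109.10 kb. The region centred 1.03 kb after that end was 1200 bp wide, a width that 14 of 25317 enzalutamide regions reached (0.0553%), and the one at 22.73 kb was 800 bp wide. BCOR held 1 OSU-ERb-12 region, 80.30 kb after the same end, which overlapped an enzalutamide region by 150 bp, and no combination region. The other lists are sparse on this chromosome, with 0.686 OSU-ERb-12 and 0.391 combination regions per Mb against 4.08 for enzalutamide, and from the density within 5 Mb 0.146 and 0.0146 were expected at BCOR.

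EED, the subunit that reads trimethylated K27, had an enzalutamide region of 850 bp across its start (86244551 to 86245400 on chromosome 11; 108 of 25317 regions were as wide) and a further one of 200 bp after it. SUZ12 held 1 enzalutamide region, 0.31 kb before the start. EZH2, the main catalytic subunit in dividing cells, had no listed region at a start, and held 1 enzalutamide region 8533 bp outside the gene, in CUL1, and 1 OSU-ERb-12 region inside. Its paralogue EZH1 held 1 enzalutamide, 2 OSU-ERb-12 and 2 combination regions. At the EZH1 start the enzalutamide region (42744551 to 42744850 on chromosome 17) and the combination region (42744301 to 42744550) abut without sharing a base, and near the 3′ end a combination region lay within an OSU-ERb-12 region. JARID2, an accessory Polycomb subunit, held regions of all 3 lists at an inner start, 2.21 to 2.26 kb after the 5′ end of the gene, with the combination region (15248201 to 15248450 on chromosome 6) inside both of the others.

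The flavin demethylase KDM1A, or LSD1, held 1 enzalutamide region, 0.22 kb before its start, and no other. Its paralogue KDM1B held none of enzalutamide and 1 OSU-ERb-12 region, 44.23 kb into the gene. Of the 15 Jumonji demethylases, 12 were reached by the enzalutamide list (58.3% of all genes), 5 by OSU-ERb-12 (39.2%) and 6 by the combination (21.7%). An enzalutamide region lay at the start of 8 (29.2% of all genes), an OSU-ERb-12 region at that of 1 (6.77%) and a combination region at those of 2 (5.12%).

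KDM6B, or JMJD3, a K27 demethylase known in inflammatory and differentiation responses, held 8 enzalutamide regions in a locus of 40.6 kb (0.564 expected from the density within 5 Mb), no OSU-ERb-12 region (0.361 expected) and 2 combination regions (0.134 expected). Of the 8 enzalutamide regions, 6 lay inside the gene (chromosome 17, 7834217 to 7854796), 1 was 8567 bp before it in DNAH2 and 1 was 2955 bp beyond it in NAA38 and CYB5D1. The region at 7834201 to 7834400, across the start, had the same boundaries in the enzalutamide and combination lists. The other combination region lay in TMEM88, 805 bp beyond the gene. Like BCOR, 4 further genes lie on the X chromosome (KDM5C, KDM6A, PHF8 and SUV39H1). The 5 together held 17 enzalutamide regions, 11 of them at BCOR. From the density within 5 Mb, 0.524 were expected at KDM5C and 0.294 at SUV39H1, which held 2 each, and 0.846 at PHF8, which held 0. KDM6A, the KDM6B paralogue on the X chromosome, held 2 enzalutamide regions in a locus of 260 kb, where 2.41 were expected, 1 of them 0.49 kb after the start.

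The KDM5 genes, which encode K4 demethylases, differed among themselves. KDM5A held no region of any list, with 1.37 enzalutamide and 1.79 OSU-ERb-12 regions expected. KDM5B held 4 OSU-ERb-12 regions (2.03 expected), 1 enzalutamide region, and 1 combination region 2.37 kb after the start. The widest OSU-ERb-12 region (202809951 to 202810600, chromosome 1) spanned 650 bp, a width that 35 of 17931 regions reached (0.195%). It contained the enzalutamide region and lay 1530 bp before KDM5B and 354 bp from the start of PCAT6, a long noncoding RNA gene named as prostate cancer associated transcript. KDM5C held 2 enzalutamide, 2 OSU-ERb-12 and 1 combination region, with an enzalutamide and an OSU-ERb-12 region that share 200 bp 4644 bp before the gene, inside IQSEC2. A combination region stood 0.18 kb and an enzalutamide region 1.11 kb after the start.

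Among the remaining Jumonji genes, KDM3B, a K9 demethylase, held 4 enzalutamide regions (1.60 expected) and none of the other lists, and 2 of the 4 lay at its start, 1 of them 700 bp wide. KDM3A had an enzalutamide region 0.35 kb before an inner start and an OSU-ERb-12 region 1.09 kb after another. KDM4B, an androgen receptor coactivator, held 4 enzalutamide, 2 OSU-ERb-12 and 1 combination region, of which an enzalutamide region of 400 bp lay across the start. KDM4C held 3 enzalutamide and 4 OSU-ERb-12 regions, all of them deep in the gene, 131.80 to 415.43 kb from the listed start. KDM4A held 2 enzalutamide regions, KDM2A 3 and KDM2B 2, with 1 combination region at KDM2B. KDM7A held 2 enzalutamide regions, 1 of them 0.72 kb before the start, KDM8 held 1 combination region 9976 bp outside the gene, and PHF8 held none.

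The lists shared few regions in these loci. Of the 57 OSU-ERb-12 regions, 7 overlapped an enzalutamide region (12.3%, interval 5.08 to 23.7, and 6.48% of the 108 enzalutamide regions), against 10.2% over the loci of all protein-coding genes and 8.72% of the whole OSU-ERb-12 list. These lay at BCOR, JARID2, KDM5B, KDM5C, KMT2E and SMYD3, the last with 2. Of the 16 combination regions, 3 overlapped an enzalutamide region (18.8%, 4.05 to 45.6), against 18.8% over the loci of all genes and 16.3% of the whole list. Likewise 3 overlapped an OSU-ERb-12 region (18.8%), against 14.1% over the loci of all genes and 12.7% of the whole list, and 12 overlapped neither. Overlap of a combination region with both single agents was seen at 2 genes, SMYD3 and JARID2. Genes with such a region made up 1.41% of all protein-coding genes. Regions of all 3 lists within 1 kb of a start were found at 3 genes, EZH1, JARID2 and SMYD3, of 40 (background 0.84%).

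By pattern, 14 genes held enzalutamide regions alone (32.6%, against 23.1% of all genes), 10 held enzalutamide and OSU-ERb-12 regions (23.3% against 18.2%) and 11 held all 3 (25.6% against 11%). OSU-ERb-12 regions alone were held by KDM1B and SETD2 (background 7.7%), and a combination region alone by KDM8 (background 2.46%). KDM2B and KDM6B held enzalutamide and combination regions (background 6%), and 0 genes held OSU-ERb-12 and combination regions without enzalutamide (background 2.23%). EHMT2, KDM5A and PHF8 held none, 3 genes of 43 (background 29.3%). None of these pattern shares was matched for locus length, and these loci are longer, with a median of 104 kb against 44.1 kb for all genes. The differences from all genes can therefore not be told apart from length. Of the 14 genes with a combination region, 13 also held a region of a single agent (92.9%), against 88.7% of all genes with one. Of all 181 regions, 31 enzalutamide, 11 OSU-ERb-12 and 5 combination regions lay outside the named gene, and 21, 7 and 2 of these lay in another annotated gene.

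Other chromatin genes held enzalutamide regions nearly as widely, 103 of 133 (77.4%), with OSU-ERb-12 regions at 57 (42.9%) and combination regions at 44 (33.1%). The shares over all protein-coding genes were 58.3% for enzalutamide, 39.2% with OSU-ERb-12 and 21.7% under the combination. For enzalutamide the number was 10 of 16 other lysine methyltransferases, 7 of 10 other demethylases, 27 of 35 other Polycomb and BAP1 complex genes, 10 of 14 cofactors of the K4 enzymes, 13 of 15 acetyltransferases, 13 of 16 deacetylases, 7 of 9 arginine methyltransferases and 16 of 18 remodelling ATPases. OSU-ERb-12 regions were held by 9 of the 15 acetyltransferases and 8 of the 14 cofactors, and by 1 of the 9 arginine methyltransferases. Combination regions were held by 8 of the 16 deacetylases and by 2 of the 16 other lysine methyltransferases. No difference between these groups was tested. HDAC4, a class II deacetylase gene, held 10 enzalutamide, 7 OSU-ERb-12 and 4 combination regions, and HDAC5 held 6, 0 and 2. PAGR1, a cofactor of KMT2C and KMT2D, held 5 enzalutamide regions and no other, and PCGF3, a variant Polycomb subunit, held 3 combination regions and 1 of each single agent.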

How the data were processed

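The deposited data are 3 BED lists of regions, 1 for each treatment. Per the labels' protocols, ATACSeqQC separated the nucleosome-free reads. FastQC, Trimmomatic and hg38 come from the submitters' processing notes. How regions were called, tested against vehicle, pooled over replicates and corrected for transposase offset was not given in the sources used here, and neither was the direction of change. The deposited score is 0 throughout, so it was not used. Boundaries follow a 50 bp grid, with 200 bp as the shortest region. Treatments were assigned from name parts shared with sample titles. For OSU-ERb-12 that part is WT, also the genotype label of all samples, and its values depend on this assignment.

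Genes and starts came from RefSeq GRCh38.p14, and coordinates are 1-based. Expected numbers are locus length times the density of a list within 5 Mb on either side, the locus itself left out. They are a yardstick and no test. Like locus length means the same decile of length. Exons and introns were not resolved. The counting was tested on simulated data (Python 3.11.15, pandas 2.3.3, scipy 1.17.1). Depth is unknown. The genes and gene lists were chosen with earlier results of these data known. BCOR and KDM6B were set to be named in any case. By rule, the text names the up to 8 genes with most regions in each list, genes where lists overlap, and genes with a region at a start, plus up to 4 leading genes of each other chromatin list, of which some are printed; the plot of regions by gene gives the count of each of the 43.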

Additional observations from a re-analysis of the deposited data

How the results depend on the processing

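Of 87 alternative values for 15 results, 73 stayed within their interval or within 1.5 times a count. The direction of the enzalutamide share at starts held under each alternative run: 52.5% with 500 bp (background 23.2%), 70.0% with 5 kb (37.3%), 55.8% at both gene ends (28.3%), 52.5% at the outermost start only (27.0%), and 45% with regions wider than 200 bp (17.9%). The ratio of the share of these genes with an enzalutamide region to the background, 1.48 as reported, was 1.70 with the gene body only, 1.69 with 1 kb either side, 1.15 with 50 kb, 1.12 among genes with a region of any list and 1.2 among genes of like locus length. For OSU-ERb-12 it was 1.37 as reported, 1.91 with the gene body only, 1.76 with 1 kb and 1.95 with regions wider than 200 bp, which 15 in place of 23 genes held, but 1.13 with 50 kb, 1.04 among genes with a region of any list and 1.02 among genes of like locus length. The combination count of 14 was 28 with 50 kb and 7 with regions wider than 200 bp. The density ratio to all loci, 1.31 for enzalutamide and 1.15 for OSU-ERb-12, was 0.985 and 0.838 against the density within 5 Mb, so it crossed 1. For the combination it was 0.802, and it crossed 1 with 50 kb (1.07) and with regions wider than 200 bp (1.09). The density within 5 Mb, the outermost start and wider regions at starts were chosen after seeing the data. Sharing between lists stayed within its intervals under a stricter and a looser overlap rule. No paired analysis was possible because the lists hold no values per sample, and for the same reason no replicate could be left out. Depth per sample is unknown.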
